A study of Mus musculus with 6 samples.

Results

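A set of 10 transcripts that mark blood vessel endothelium was followed in RNA-seq libraries of colon macrophages: Plvap, Pecam1, Cdh5, Esam, Egfl7, the VEGF receptor genes Kdr and Flt1, the angiopoietin receptor genes Tie1 and Tek, and Eng. They were taken by gene symbol, and all 10 of 10 were found among the 25124 rows of the table. There were 3 libraries from wild type mice and 3 from mice with macrophage-specific overexpression of E4BP4, the transcription factor that Nfil3 encodes. All mice were C57BL/6, aged 8 weeks per the design text, and both groups had received 2.0% dextran sulfate sodium in the drinking water for 7 days and plain water for 7 more, with collection on day 14. Mice without colitis were not analysed here. The titles name E4BP4 for each transgenic library, although the genotype field of replicates 2 and 3 ends the gene name in another digit. The labels name neither the promoter of the transgene nor the markers used to sort the cells, nor whether each library stands for its own mouse. P-values here thus reflect the spread among these libraries alone, and that spread may be technical.

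Endothelial cells line blood vessels and are held together by VE-cadherin, which Cdh5 encodes. Vascular endothelial growth factor A, made by hypoxic tissue and by macrophages among other cells, signals to endothelium through VEGF receptor 2 (Kdr), while VEGF receptor 1 (Flt1) binds the same ligand tightly and signals weakly. The angiopoietins act through the receptor Tie2 (Tek) and its relative Tie1, and stabilise or loosen the vessel wall. Several of these genes are not private to endothelium: Pecam1 is also made by monocytes, macrophages and platelets, and Eng, a co-receptor for TGF-beta family ligands, by activated macrophages.

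The libraries were deep for macrophage transcripts and shallow for most of these 10. Library size was 17.2 to 18.9 M reads by the column headers, and 13.97 to 15.06 M of these fell in genes. Nfil3 itself was at 117, 120 and 119 TPM (wild type) and 133, 134 and 141 TPM (transgenic) (limma adjusted p = 0.00261); the counts do not tell the transgene from the mouse's own gene. All 12 of 12 macrophage markers were measured, and their summed level was 19880 to 20109 TPM (a level per length of transcript, scaled to a fixed total) in wild type and 19233 to 19313 TPM in transgenic libraries. The 10 endothelial transcripts together came to 77.8, 82.2 and 78.0 TPM in wild type and 65.1, 61.0 and 58.7 TPM in transgenic libraries. All 10 were detected in each library, and their sum was far under that of the macrophage markers. Of those markers 4 were called higher and 6 lower, beside 8.71% higher and 13.2% lower over all genes tested. In bulk libraries such as these, fewer cells of a type and less RNA per cell cannot be told apart.

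The promoters of Kdr, Flt1, Tie1 and Eng are shown because Kdr and Tie1 were called lower in the transgenic libraries and Eng higher, while Flt1 was the VEGF receptor gene whose call depended on the filter and on the method. RefSeq sequences (GRCm38.p6) were at hand for 6 of the 10 genes, the others being Tek and Egfl7. Each run is the 250 bases before the start of the gene, on the strand of the gene. Capitals mark AGGAAG, a form of the binding site of ETS factors, which are active in endothelial and in myeloid cells, read on both strands.
Kdr, chr5:75978456-75978705, minus strand: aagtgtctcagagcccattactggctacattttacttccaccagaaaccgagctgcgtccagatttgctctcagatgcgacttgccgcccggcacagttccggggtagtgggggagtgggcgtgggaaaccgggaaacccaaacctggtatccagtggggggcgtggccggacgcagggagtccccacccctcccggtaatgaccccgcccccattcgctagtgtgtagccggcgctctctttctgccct
Flt1, chr5:147726012-147726261, minus strand: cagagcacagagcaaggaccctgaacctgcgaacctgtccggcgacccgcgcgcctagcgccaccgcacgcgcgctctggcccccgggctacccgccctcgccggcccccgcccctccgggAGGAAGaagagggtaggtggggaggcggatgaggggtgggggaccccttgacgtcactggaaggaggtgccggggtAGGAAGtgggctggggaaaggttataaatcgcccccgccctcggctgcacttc
Tie1, chr4:118489850-118490099, minus strand: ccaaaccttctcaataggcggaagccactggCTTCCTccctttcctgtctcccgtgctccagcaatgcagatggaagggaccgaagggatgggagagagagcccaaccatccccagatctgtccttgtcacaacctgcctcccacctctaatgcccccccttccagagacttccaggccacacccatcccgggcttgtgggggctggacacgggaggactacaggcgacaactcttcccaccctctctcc
Eng, chr2:32646345-32646594, plus strand: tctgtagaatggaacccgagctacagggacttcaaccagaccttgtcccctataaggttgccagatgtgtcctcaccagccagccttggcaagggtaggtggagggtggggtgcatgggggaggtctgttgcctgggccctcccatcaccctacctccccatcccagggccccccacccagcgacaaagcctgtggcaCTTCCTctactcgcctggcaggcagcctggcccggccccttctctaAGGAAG

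Flt1 and Eng each held 2 copies of AGGAAG, Tie1 held 1 and Kdr none. Of 32851 promoter windows of this length in RefSeq, 29.5% held at least 1 copy. The Flt1 copies began 129 and 53 bases before the start of the gene, the Eng copies 52 and 6 bases before it, and the Tie1 copy 219 bases before it. Copies were present both at Tie1, called lower, and at Eng, called higher, and any part they have in the levels was not tested. The D-box bound by E4BP4 was searched as TTATGTAA or TTACGTAA on both strands, and the core of the hypoxia response element as ACGTG on both strands. Neither was found in these 4 windows, in that of Tek or in the 3 windows of Egfl7. They were present in 0.931% and 16.6% of all windows. Copies of AGGAAG therefore overlapped no match of the other motifs, and the lack of a match says only that these letters are not in the window.

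The comparison of transgenic with wild type libraries asks how far endothelial transcripts differed when macrophages overexpressed E4BP4. Several transcripts largely restricted to endothelium were lower, but not all. Plvap fell 2.66-fold, Cdh5 2.54-fold, Esam 2.93-fold, Kdr 2.93-fold and Tie1 2.57-fold, as ratios of group means (n = 3 each). Tek overlapped between the groups, as did some vessel genes of a longer list given below. Pecam1 fell by little (1.13-fold) and Eng rose (1.18-fold). Of the 10, 9 reached the minimum of 1 TPM in a group, and 7 of these were called lower and 1 higher (limma on log2(TPM + 1), adjusted p below 0.05). Among all 12633 genes tested, 13.2% were called lower and 8.71% higher. Of the genes called, 39.8% were higher, and 51.4% with upper-quartile scaling. The median log2 fold change was -0.77 over the 9 and -0.01 over all genes tested. Kdr, Flt1, Tie1 and Esam reached the minimum in wild type alone, so those counts are a description. With no filter on low values all 10 could be tested, and 7 were called lower and 1 higher, against 7.44% and 4.73% of 19512 genes. In 8 of the 10 every transgenic library lay below every wild type library, and in 1 every transgenic library lay above, where the shares over these 19512 genes were 16.4% and 13.2%.

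**Figure D1:**
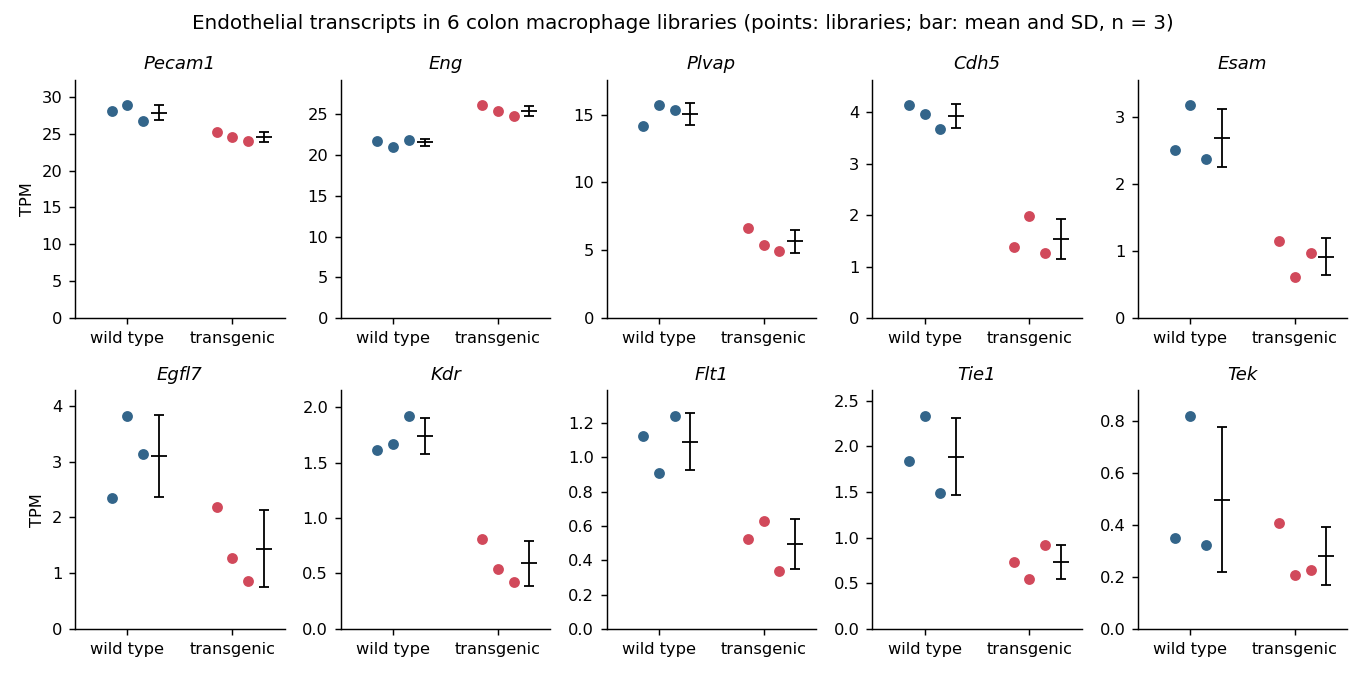
Level of each of the 10 transcripts in TPM, with 1 point per library, and the mean ± SD of 3 libraries as a bar; each vertical axis starts at 0 and has its own scale. The transgenic libraries lie below the wild type libraries for 8 transcripts, above them for Eng, and overlap them for Tek.

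Plvap, the diaphragm protein of fenestrated capillaries such as those of the gut mucosa, was the most abundant of the transcripts that fell by more than 2-fold. It stood at 14.1, 15.7 and 15.3 TPM (wild type) and 6.64, 5.39 and 4.95 TPM (transgenic). The groups were well apart, and the difference was 1.28 on the log2(TPM + 1) scale (log2 fold change -1.28 ± 0.10 SE, limma adjusted p = 0.000104). It rested on 1138 reads in wild type and 440 in transgenic libraries, and the gene lies on chromosome 8 at 71497753 to 71511769, minus strand (mm10). Plvap was called lower under all 16 alternatives run.

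Cdh5, the VE-cadherin gene (chromosome 8, 104101625 to 104144502) was at 4.14, 3.98 and 3.67 TPM (wild type) and 1.38, 1.99 and 1.27 TPM (transgenic). Its highest transgenic library was below its lowest wild type library, and it fell by 0.96 on the log2 scale (SE 0.13, limma adjusted p = 0.00172). Esam, an adhesion molecule of endothelial tight junctions and of platelets (chromosome 9, 37528089 to 37538319), was at 2.51, 3.18 and 2.38 TPM (wild type) and 1.16, 0.617 and 0.979 TPM (transgenic). It fell by 0.95 on the log2 scale (SE 0.16, limma adjusted p = 0.00398), from 187 reads in wild type and 66 in transgenic libraries. Esam reached the minimum level in wild type alone, so its call is a description (limma adjusted p = 0.00974 with no filter). Cdh5 and Esam were called lower under all 15 alternatives that tested them. Since 1 is added to the TPM before the logarithm, these log2 values understate the ratio of such low levels.

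Pecam1, or CD31, is another junction protein and was the most abundant of the 10 in wild type (chromosome 11, 106654213 to 106715281). Its level was 28.0, 28.8 and 26.7 TPM in wild type and 25.2, 24.5 and 24.0 TPM in transgenic libraries. The groups were close to each other without overlap, and the fall of 0.17 on the log2 scale was called (SE 0.046, limma adjusted p = 0.0324). The call was lost in 8 of 16 alternatives, among them upper-quartile scaling. It was lost without wild type replicate 1 or 2 (adjusted p = 0.0808 and 0.0946), and likewise on leaving out transgenic replicate 1, 2 or 3 (0.0511, 0.086 and 0.105).

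The receptor for VEGF that carries most of its signal was also called lower. Kdr (chromosome 5, 75932827 to 75978455) was at 1.62, 1.67 and 1.92 TPM (wild type) and 0.815, 0.539 and 0.422 TPM (transgenic). It rested on 117, 126 and 142 reads against 63, 39 and 33 reads. Every wild type library held more reads than any transgenic one, and Kdr fell by 0.79 on the log2 scale (SE 0.15, limma adjusted p = 0.00753), a call that held under all 15 alternatives that tested it. Kdr reached the minimum level in wild type alone, so its call is a description. With no filter its adjusted p by limma was 0.00842.

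Flt1, which monocytes can also express (chromosome 5, 147561604 to 147726011), lay at the lower limit of the tested levels. It was at 1.13, 0.911 and 1.24 TPM (wild type) and 0.522, 0.628 and 0.340 TPM (transgenic). The groups did not overlap, and the ratio of means was 2.20, but the test across all genes gave an adjusted p of 0.0593 (limma, log2 fold change -0.49, 95% interval -0.84 to -0.13). Flt1 passed the threshold under 5 of 15 alternatives, among them no filter (adjusted p = 0.0344). The ratio of Kdr to Flt1 was 1.44, 1.84 and 1.55 for wild type against 1.56, 0.858 and 1.24 for transgenic libraries. The ratios overlapped, with an exact two-sided permutation p of 0.3, so a difference between the 2 receptors was not shown.

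The angiopoietin receptor genes were low throughout. Tie1 (chromosome 4, 118471191 to 118489849) was at 1.84, 2.33 and 1.49 TPM (wild type) and 0.731, 0.549 and 0.918 TPM (transgenic). It fell by 0.73 on the log2 scale (SE 0.16, limma adjusted p = 0.0149), and the call was lost without transgenic replicate 2 (adjusted p = 0.0529). Tie1 reached the minimum level in wild type alone, so its call is a description (limma adjusted p = 0.022 with no filter). Tek (chromosome 4, 94739289 to 94874976) was at 0.348, 0.819 and 0.324 TPM (wild type) and 0.407, 0.209 and 0.225 TPM (transgenic). Wild type replicate 2 stood apart with 49 reads, where the other 5 libraries held 12 to 25. The groups overlapped, and with no filter the log2 fold change of Tek was -0.21, with a 95% interval of -0.54 to 0.12 (limma adjusted p = 0.41).

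Egfl7, a matrix protein secreted by endothelium whose gene hosts miR-126, had the largest SE among those of the 10 that were called (chromosome 2, 26586636 to 26592682). It was at 2.34, 3.82 and 3.13 TPM (wild type) and 2.19, 1.28 and 0.853 TPM (transgenic). Transgenic replicate 1 was next to wild type replicate 1, each with 33 reads. Egfl7 fell by 0.77 on the log2 scale (SE 0.22, limma adjusted p = 0.0428), a call lost in 7 of 15 alternatives. It was lost without wild type replicate 2 or 3 (adjusted p = 0.125 and 0.101), and likewise on leaving out transgenic replicate 2 or 3 (0.115 and 0.116). In the annotation (GENCODE M21, mm10) its exons share 64 bases with Agpat2 on the other strand and 264 bases with the predicted gene Gm20532 on the same strand, so some of its reads are uncertain.

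Eng moved the other way. It was at 21.7, 21.0 and 21.8 TPM (wild type) and 26.1, 25.3 and 24.8 TPM (transgenic) (chromosome 2, 32646595 to 32682669). The groups did not overlap, and Eng rose by 0.23 on the log2 scale (SE 0.044, limma adjusted p = 0.00815), under all 16 alternatives as well. Its exons share 61 bases with Fpgs on the other strand, and Fpgs stood at 5.11 TPM in both groups.

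**Figure D2:**
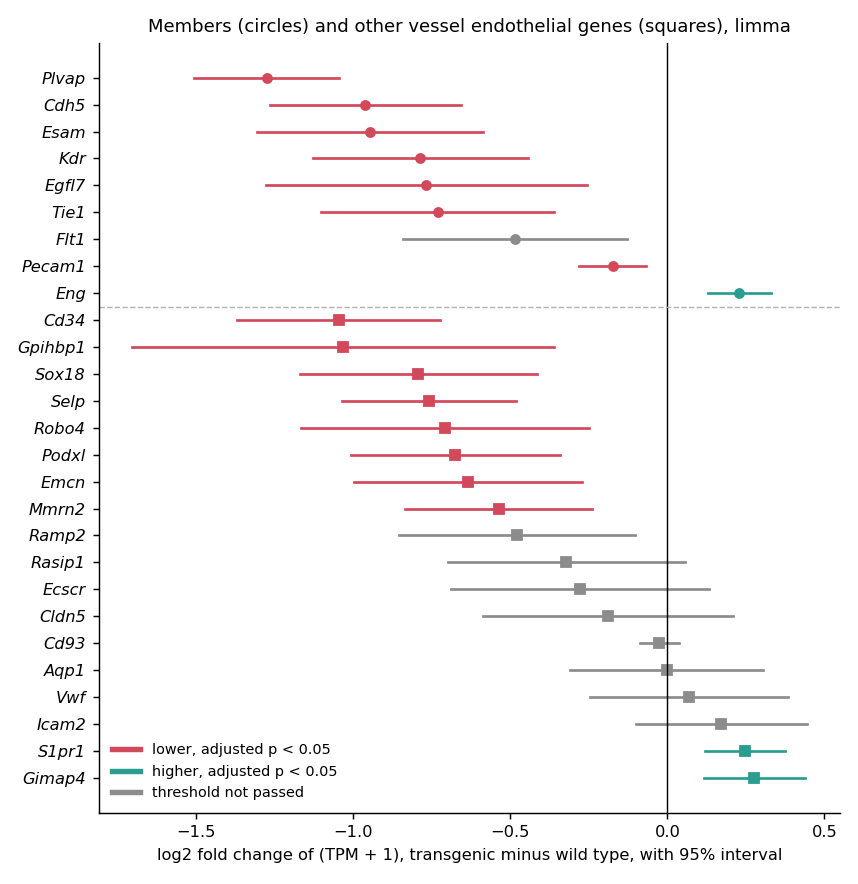
Log2 fold change of (TPM + 1), transgenic minus wild type, with its 95% interval from limma, for the 9 tested transcripts (circles, above the dashed line) and 18 tested vessel endothelial genes of a longer list (squares). Plvap at -1.28 and Cd34 at -1.05 lie farthest to the left among circles and squares, and Eng, S1pr1 and Gimap4 lie to the right of 0.

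The order of mean levels was the same in both groups apart from Eng and Pecam1, which changed places. In wild type Pecam1, Eng and Plvap were each separated from the next transcript by all 3 libraries, followed by Cdh5, Egfl7 and Esam, whose libraries overlapped, then by Tie1 and Kdr, which overlapped, and by Flt1 and Tek. In transgenic libraries Eng and Pecam1 overlapped at the top, Plvap followed, and from Cdh5 down to Tek each transcript overlapped its neighbour. These levels are per length of transcript, so they can be compared between genes.

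Ratios within a library were chosen with the values known. The ratio of Pecam1 to Cdh5 was 6.78, 7.26 and 7.28 for wild type against 18.3, 12.4 and 18.9 for transgenic libraries. The ratio of Pecam1 to Plvap was 1.98, 1.84 and 1.74 against 3.80, 4.55 and 4.84, and that of Eng to Pecam1 0.773, 0.728 and 0.817 against 1.03, 1.03 and 1.03. For each of these 3 ratios the groups did not overlap, with an exact two-sided permutation p of 0.1, the smallest that 3 against 3 libraries allow. The ratio of Plvap to Cdh5 overlapped between the groups and averaged 3.85 ± 0.388 in wild type and 3.81 ± 1.05 in transgenic libraries (SD, n = 3 each; exact permutation p = 0.8). In all, 6 ratios were computed, and none could pass a threshold of 0.05 in this design. Summed without Pecam1 and Eng, the other 8 transcripts came to 28.0, 32.4 and 29.5 TPM in wild type and to 13.8, 11.2 and 9.95 TPM in transgenic libraries.

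**Figure D3:**
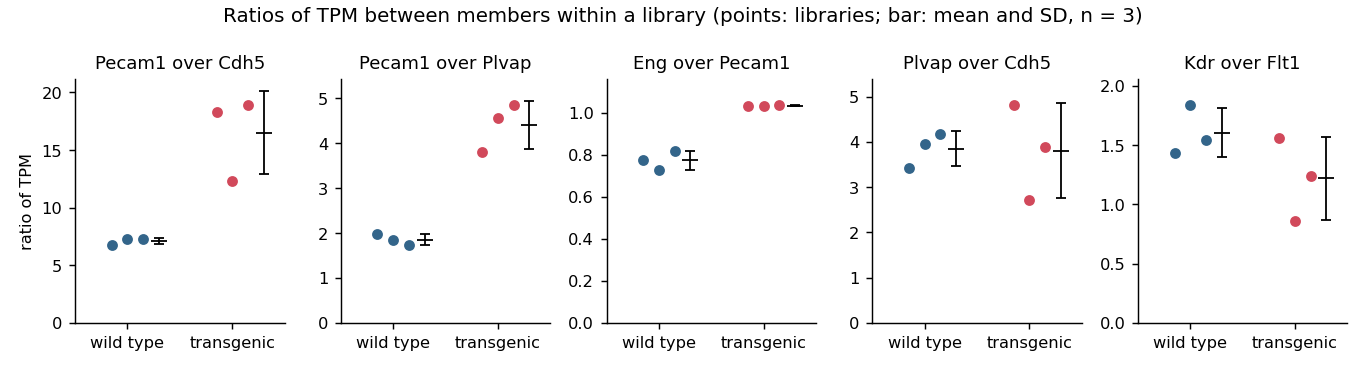
Ratio of the TPM of 2 transcripts within each library, with 1 point per library and the mean ± SD of 3 libraries as a bar; axes start at 0. Pecam1 over Cdh5, Pecam1 over Plvap and Eng over Pecam1 separate the groups, while Plvap over Cdh5 and Kdr over Flt1 overlap.

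The authors' deposited table gives a second reading of the same libraries, counted over the span of each gene with introns included. By the authors' deposited table, 8 of the 10 were called lower and 1 higher, among 20884 genes with a fold change of which 13.2% were called lower and 11.2% higher. Its log2 fold change was -1.42 for Plvap, -1.39 for Kdr, -1.30 for Esam, -1.19 for Tie1, -1.14 for Egfl7 and -1.09 for Cdh5 in the authors' deposited table. Flt1, missed above, was at -0.77 with an adjusted p of 0.000127 in the authors' deposited table, and Pecam1 and Eng were at -0.15 and 0.18. Tek was at -0.05 with an adjusted p of 0.927 in the authors' deposited table, where its span is 135687 bases. The table lists regularized log2 values per library, and for Tek they were 5.81, 5.90 and 5.80 for wild type against 5.91, 5.81 and 5.76 for transgenic libraries. By that count, too, the Tek groups overlapped. These values come from the same 6 libraries and are not independent evidence.

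Beyond the 10, a list of 36 other blood vessel endothelial genes was examined, of which 18 were tested, 8 were called lower and 2 higher. Among all genes tested, 13.2% were called lower and 8.71% higher. Over all 36, the mean was lower in transgenic libraries for 30 and higher for 6. The groups did not overlap for 19 (lower) and 2 (higher), where the shares over all 19512 genes with reads were 16.4% and 13.2%. Of the 18 tested, 9 reached the minimum level in wild type alone, so these counts are a description. With no filter 9 of the 36 were called lower and 2 higher, where 7.44% and 4.73% of all genes were, and their median log2 fold change was -0.29. Cd34, a sialomucin of endothelium and of progenitors, fell from 4.72 ± 0.874 to 1.75 ± 0.235 TPM (mean ± SD of 3; p adjusted by limma = 0.00156). Selp, the P-selectin of activated endothelium and platelets, fell from 3.39 ± 0.337 to 1.60 ± 0.241 TPM (mean ± SD of 3; p adjusted by limma = 0.00336). Sox18, a transcription factor of vessel formation, and Podxl, a surface sialomucin, fell by 0.79 and 0.68 on the log2 scale. These 4 were called lower under all 15 alternatives that tested them. Sox18 and Podxl reached the minimum level in wild type alone, so their calls are a description.

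Emcn, Robo4, Mmrn2 and Gpihbp1 were the other 4 called lower, named here because their calls were less steady. All 4 reached the minimum level in wild type alone, so their calls are a description. Each was lost on leaving out certain single libraries. For Emcn these were all but wild type replicate 2 (adjusted p = 0.0566 to 0.0714), and for Robo4 wild type replicate 2 or any transgenic one (0.0858 to 0.102). For Mmrn2 they were wild type replicate 2 or 3 and transgenic replicate 2 or 3 (0.0537 to 0.0676), and for Gpihbp1 wild type replicate 1 or any transgenic one (0.0897 to 0.0984). Gpihbp1, the lipase anchor of capillaries, rested on 20 reads in wild type and 0 in transgenic libraries. With no filter Gpihbp1 was not called (limma adjusted p = 0.0607), while Emcn, Robo4 and Mmrn2 were called lower (0.0225, 0.0373 and 0.00757). Sele, the E-selectin of inflamed endothelium, stayed under the minimum level and was named after its values were seen. It was at 0.955, 0.918 and 1.05 TPM (wild type) and 0.053, 0.028 and 0.104 TPM (transgenic), from 106 and 7 reads, a ratio of means of 15.8.

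Not every vessel gene was called lower. Vwf, the von Willebrand factor of endothelium and platelets, was at 1.21, 1.30 and 1.06 TPM (wild type) and 1.17, 1.58 and 1.17 TPM (transgenic) (log2 fold change 0.07, 95% interval -0.25 to 0.38, limma adjusted p = 0.765). Cldn5, a tight junction claudin of endothelium, gave -0.19, with a 95% interval of -0.59 to 0.21. The 2 genes called higher, the sphingosine 1-phosphate receptor gene S1pr1 and the GTPase gene Gimap4, are also active in leukocytes. S1pr1 rose from 11.5 to 13.9 TPM and Gimap4 from 9.84 to 12.1 TPM (limma adjusted p = 0.0152 and 0.0262). Both calls were lost without transgenic replicate 2 (0.0541 and 0.0835) or 3 (0.0575 and 0.0905), and that of Gimap4 also without wild type replicate 2 or 3 (0.059 and 0.0742). Vwf, Cldn5 and these 2 were picked out once their values were known.

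Over the 46 endothelial genes a lower transgenic mean was more frequent at lower levels. This grouping was made after the values were seen, and is given with no test and no share over all genes of like level. Of the 6 genes averaging 10 TPM or more over the 6 libraries (Cd93, Pecam1, Eng, S1pr1, Gimap4 and Plvap) the transgenic mean was lower for 3, and Plvap, at 2.66-fold, was the 1 that differed by more than 2-fold. Of the 14 genes at 1 to 10 TPM the transgenic mean was lower for 11, with a median ratio of 2.49. Of the 26 genes under 1 TPM it was lower for 25, with a median ratio of 1.97, from as few as 20 reads a gene. Cd93, a receptor of endothelium and of myeloid cells, was at 141 ± 1.01 TPM (wild type) and 139 ± 3.81 TPM (transgenic) (mean ± SD of 3; p adjusted by limma = 0.542). The authors' deposited table called Cd93 lower, by a small log2 fold change of -0.07 (adjusted p = 0.00357 in that table).

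**Figure D4:**
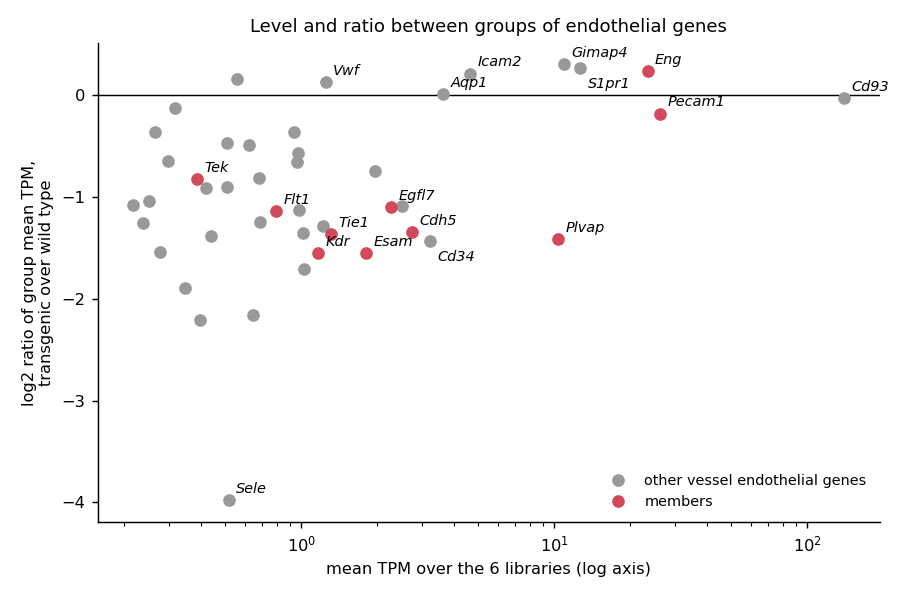
Mean TPM over the 6 libraries (log axis) against the log2 ratio of group mean TPM, transgenic over wild type, for 45 endothelial genes; Gpihbp1, with 0 reads in the transgenic group, has no ratio. Except for Plvap, the genes above 10 TPM lie near 0, and 32 of the 39 genes below that level lie between 0 and -2.

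Markers of lymphatic endothelium did not follow one direction. Of 8 genes 3 were tested, 1 was called higher and 1 lower, beside 8.71% higher and 13.2% lower over all genes. Prox1, the factor that defines lymphatic endothelium, stood at a mean of 0.0617 TPM (wild type) and 0.0727 TPM (transgenic), from 18 and 22 reads, and Flt4, the receptor for VEGF-C, at 0.197 and 0.181 TPM. These defining genes were near 0 in both groups. Lyve1, a hyaluronan receptor that macrophages also carry, was at 86.3 and 95.7 TPM (limma adjusted p = 0.0216), a call lost without wild type replicate 1 or 2 (0.0573 and 0.064) or transgenic replicate 2 or 3 (0.0555 and 0.0604). Pdpn, which fibroblasts and inflammatory macrophages express too, fell from 13.6 ± 1.67 to 5.53 ± 0.0573 TPM (mean ± SD of 3; p adjusted by limma = 9.66e-05).

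On the ligand side of the VEGF receptors, Vegfa fell 1.99-fold. Of 8 measured ligands and co-receptors 5 were tested, and limma called 2 lower and 0 higher, beside 13.2% and 8.71% of all genes. Pgf was the 1 gene higher at an unadjusted p below 0.05 by limma, and the 1 called higher in the authors' deposited table. Vegfa was at 93.9, 89.5 and 89.0 TPM (wild type) and 45.4, 45.6 and 45.6 TPM (transgenic). It fell by 0.98 on the log2 scale (SE 0.032, limma adjusted p = 1.3e-06). Pgf, placental growth factor, which binds Flt1 and not Kdr, was at 16.2, 18.2 and 16.3 TPM against 17.9, 21.7 and 19.3 TPM (limma adjusted p = 0.111). Vegfb, another Flt1 ligand, was at 20.1 and 18.2 TPM (0.133). Vegfc, a ligand of Flt4, stayed under 1 TPM, at 0.782, 0.793 and 0.511 TPM against 0.366, 0.174 and 0.241 TPM, and was called lower with no filter (limma adjusted p = 0.0371). Vegfd was under 1 TPM in each group.

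Of the co-receptors, Nrp1 was at 77.9 ± 1.35 and 79.0 ± 2.84 TPM (mean ± SD of 3; p adjusted by limma = 0.738). Nrp2 fell from 17.5 ± 0.178 to 15.3 ± 0.488 TPM (mean ± SD of 3; p adjusted by limma = 0.034), a call lost on leaving out each of the 6 libraries in turn (0.0567 to 0.111). Angpt1 and Angpt2, the ligands of Tie2, had means of 0.0747 and 0.455 TPM for wild type against 0.0483 and 0.349 TPM for transgenic libraries, too low to test here, and the authors' deposited table called Angpt1 higher. Of the 7 genes of the angiopoietin list 3 were tested and 1 was called lower, beside 13.2% of all genes. That gene was Svep1, a large matrix protein that binds Tie1, at 2.70, 3.17 and 3.38 TPM against 1.24, 1.46 and 1.46 TPM (limma adjusted p = 0.00278). Angpt1 rested on 12 and 8 reads and Angpt2 on 61 and 48 reads in the wild type and transgenic groups.

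Of 14 tested genes of the endoglin and TGF-beta receptor pathway 2 were called higher and 1 lower, with a median log2 fold change of -0.03, beside 8.71% higher and 13.2% lower over all genes. Acvrl1, the type I receptor ALK1 that endoglin assists, rose from 36.1 ± 0.735 to 41.4 ± 1.57 TPM (mean ± SD of 3; p adjusted by limma = 0.0131). Tgfbr1 rose from 74.7 ± 1.20 to 84.6 ± 1.94 TPM (0.0049), and the ligand gene Tgfb1 fell from 272 to 242 TPM (limma adjusted p = 0.00111). The receptor genes Bmpr2, Tgfbr2 and Tgfbr3 did not pass the test (limma adjusted p = 0.595, 0.274 and 0.244). The ligand genes Gdf2 and Bmp10 are listed at 0 in all 6 libraries.

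**Figure D5:**
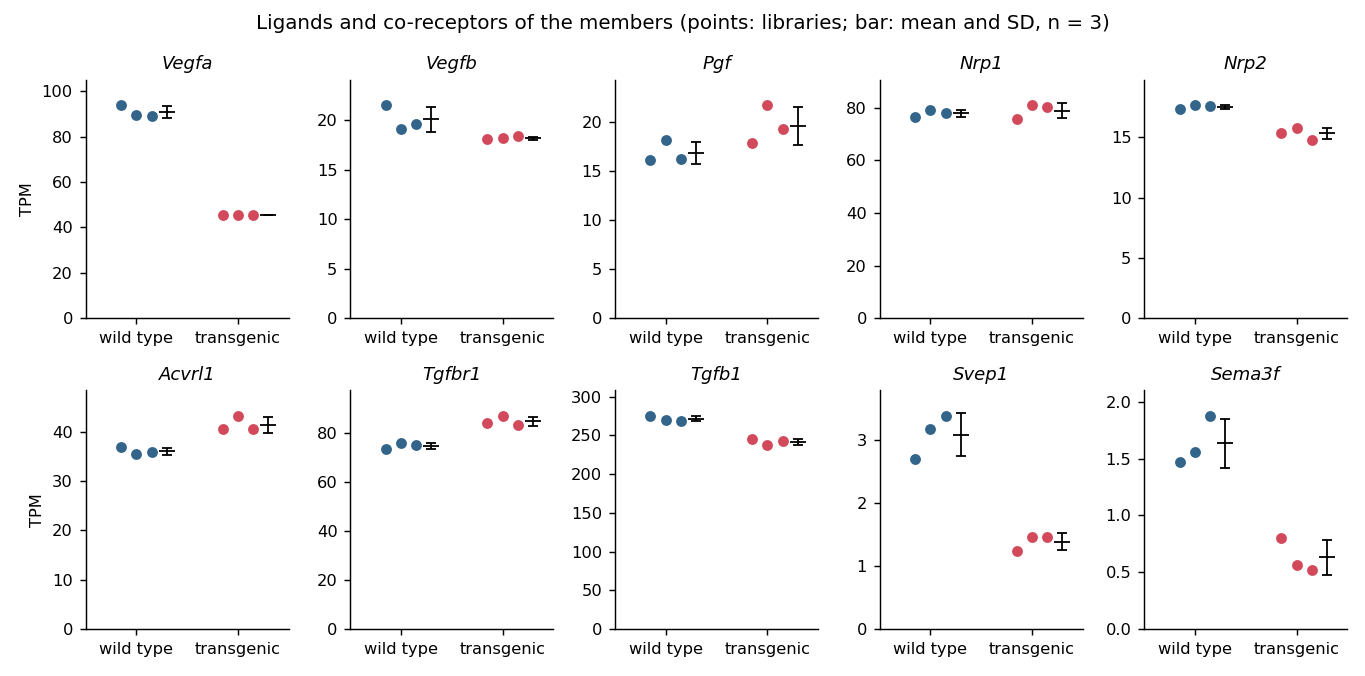
TPM of ligands and co-receptors that act with the 10 transcripts, and of Sema3f, with 1 point per library and the mean ± SD of 3 libraries as a bar; each axis starts at 0. Vegfa, Svep1 and Sema3f are lower in every transgenic library, Acvrl1 and Tgfbr1 are higher, and Pgf and Nrp1 overlap.

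The remaining lists cover junction partners, Notch signalling and other angiogenic factors, and their counts stand beside 8.71% of all genes called higher and 13.2% lower. Among 10 tested catenins and junction partners, Jup rose and Ctnnb1 fell, by 0.23 and 0.14 on the log2 scale, and the call on Jup was lost without wild type replicate 2 or transgenic replicate 1 or 2 (limma adjusted p = 0.0595, 0.064 and 0.0514). Among 8 tested Notch pathway genes, 2 rose (Notch2 and Hes1, by 0.29 and 0.26) and 1 fell (Lfng, by 0.24). Of 14 other angiogenic factors 5 were called lower by limma and 0 higher, with 0 higher at an unadjusted p below 0.05 as well, while the authors' deposited table called 1 higher (Sema3a) and 6 lower. Thbs1, which encodes the angiogenesis inhibitor thrombospondin 1, fell from 874 ± 5.04 to 517 ± 4.82 TPM (mean ± SD of 3; p adjusted by limma = 8.49e-08). The chemokine gene Cxcl12 fell from 14.8 to 10.3 TPM, the axon guidance gene Sema3f from 1.64 to 0.630 TPM and Pdgfa from 25.3 to 20.6 TPM (limma adjusted p = 0.00306, 0.0114 and 0.016). Sema3f reached the minimum level in wild type alone, so its call is a description. The call on Pdgfa was lost without wild type replicate 1 or 3 (0.0535 and 0.0506) or transgenic replicate 2 or 3 (0.0576 and 0.0571). Ccl21a, Dok2, Grb7, Smad1, Ocln, Cgn and Jag2, next by p in their lists, did not pass the test.

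The transcripts most like Plvap, Kdr, Pecam1 and Eng in profile were sought by comparing each gene's shares of TPM over the 6 libraries, as a description. The search covered 8597 genes (8598 for Kdr) averaging 5 TPM or more, a level that most of the endothelial genes did not reach. For Plvap the nearest were Sdc1, Chst11 and Col18a1, whose shares differed from those of Plvap by 1.85%, 2.37% and 2.42% of the total. For Kdr the nearest was Plvap (4.20%), then Col4a2 (5.13%) and Sdc1 (5.15%). Pecam1 was nearest to Atp6v1a, Gnb2 and Fkbp4 (0.441% to 0.543%), and Eng to Daxx, Trim30a and Crbn (0.419% to 0.537%).

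Markers of other cell types moved in the same libraries, and their part in the endothelial differences was not tested. Their counts stand beside 13.2% of all genes called lower and 8.71% higher. Of 12 pericyte and smooth muscle markers 7 were tested and 3 were called lower, and their summed level was 41.9 to 44.8 TPM for wild type against 34.4 to 37.2 TPM for transgenic libraries. Mcam, shared by pericytes and endothelium, fell from 3.71 to 1.40 TPM and the pericyte genes Pdgfrb and Rgs5 by 0.69 each on the log2 scale, while Higd1b was at 0 in all 6 libraries. Acta2, Tagln, Des and Myh11, the other tested genes of this list, were not called. They were at 10.8, 15.2, 2.09 and 1.61 TPM for wild type against 10.3, 15.7, 2.11 and 1.21 TPM for transgenic libraries. Pdgfrb reached the minimum level in wild type alone, so its call is a description. Of 10 fibroblast markers 6 were called lower, with sums of 185 to 191 against 133 to 139 TPM. Of 12 epithelial markers 9 were called lower, with sums of 1074 to 1082 against 603 to 608 TPM. Most of that fall was Car1, from 497 to 164 TPM. The means of Muc2 and Krt18 were not lower (35.9 and 16.8 TPM for wild type, 36.1 and 19.5 TPM for transgenic libraries). Of 12 platelet and megakaryocyte markers 5 were tested and 2 were called lower, Selp being 1 of them, with sums of 586 to 622 against 570 to 631 TPM that were mostly Pf4. The platelet receptor genes Gp5, Gp6 and Gp9 reached at most 0.274 TPM in any library. Gp1bb, another receptor gene and the other one called lower, fell from 2.28 to 1.13 TPM (limma adjusted p = 0.0326). Ppbp and Itgb3 were not called, at 9.02 and 1.43 TPM for wild type against 7.22 and 1.25 TPM for transgenic libraries. Erythrocyte markers were higher, with sums of 19.7 to 29.96 against 47.9 to 55.3 TPM and 4 of 7 called higher. Neutrophil markers were lower in 8 of 10, with sums of 1181 to 1217 against 493 to 551 TPM. T and NK cell markers were called higher in 3 of 9 measured, with sums of 107 to 117 against 121 to 129 TPM. Those sums were mostly Cd4, at a mean of 87.4 TPM (wild type) and 89.6 TPM (transgenic), which was not called. Of 8 B and plasma cell markers 1 was called higher and 1 lower, and of the mast cell and the glial lists a single gene each could be tested and was not called.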

How the data were processed

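RNA-seq was made from polyA-selected RNA of sorted colon macrophages, 3 libraries per genotype. The authors' deposited TPM table holds TPM per gene over exons and library. Its rows summed to 543612 to 545319 TPM per library, short of the total that the unit implies, for a reason not known here. A second deposited table holds the authors' regularized log2 values per library, counted over gene spans, with log2 fold changes, p-values and adjusted p-values. Per the submitters' processing notes, bcl2fastq, STAR, HOMER 4.11.1, DESeq2 and mm10 were used; how they were ordered and set is not given in the sources used here.

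Genes averaging 1 TPM or more in either group were fitted as log2(TPM + 1) with limma 3.58.1 (R 4.3.3, trended prior variance), over all 12633 such genes, with Benjamini-Hochberg adjustment and a threshold of 0.05. The code was tested on simulated data. Reads were recovered from TPM, exon length and the value of 1 read: 99.9% to 100% of values up to 1000 reads came out whole within 0.1 read. On them limma-voom called 2074 genes lower and 1637 higher. The TPM of 3 reads in a transcript of 2000 bases is 0.113 to 0.122. Reads carry no molecular identifiers, so this floor covers counting error only. The library kit is not described as keeping strand, so reads of overlapping genes on opposite strands cannot be told apart.

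The 10 genes, the gene lists and the tests were chosen with earlier results of these data known. Named genes are the 10, up to 4 per pathway list with the lowest p (cell type markers are given mainly by counts and sums), the VEGF and angiopoietin ligands and co-receptors, and the 3 nearest profiles of Plvap, Kdr, Pecam1 and Eng. Alternatives were another pseudocount (0.1 TPM), other filters, 2 other scalings, no trend, limma-voom, the authors' table, a replicate block and leaving out each library.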

Additional observations from a re-analysis of the deposited data

How the results depend on the processing

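Of the 10 transcripts, 7 were called lower by limma. The count was 2 of 3 tested with a minimum of 5 TPM in a group, where fewer genes were tested, and 4 to 6 with 1 library left out, the 4 being without transgenic replicate 2. It was 8 by limma-voom, by the authors' deposited table and with a mean of at least 0.5 TPM over all 6 libraries, a filter chosen after seeing the data. Eng was the 1 called higher under each alternative. Of the 36 other vessel genes 8 were called lower. That count was 0 of the 3 tested at a minimum of 5 TPM (limma; also 0 at an unadjusted p below 0.05), 14 in the authors' deposited table and 4 to 7 with 1 library left out. The 2 called higher became 1 in the authors' deposited table and 0 to 2 with 1 library left out. The 0 arose without transgenic replicate 2 or 3, where both genes had an unadjusted p below 0.05 by limma. For the 10 transcripts 118 values kept direction and side of the threshold, 16 lost the call, 5 gained it and 0 changed sign. For the other named genes 647 kept both, 59 lost the call, 11 gained it and 9 changed sign, all of the 9 uncalled before and after. With upper-quartile scaling the log2 fold change of Cd93 went from -0.026 to 0.0089 and that of Aqp1 from -0.0026 to 0.025, and median-ratio scaling gave 0.011 for Aqp1. Nrp1 went from 0.019 to -0.018 in the authors' deposited table. With 1 library left out, the range was -0.180 to 0.035 for Grb7, -0.014 to 0.111 for Vwf and -0.091 to 0.129 for Aqp1. Over all genes 1666 were called lower and 1100 higher, 39.8% higher, and with upper-quartile scaling 1312 and 1387, 51.4% higher. Where the counts moved for reasons other than fewer genes or fewer samples, the cause was not tested. Kdr, Flt1, Tie1, Tek, Esam and Egfl7 each held 142 reads or fewer in every library, which limits their precision.

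Libraries with the same replicate number showed no shared deviation (correlations -0.0132, -0.043 and 0.032), and pairs with different numbers gave -0.0441 to 0.0593. With 3 libraries per group this cannot tell whether the numbers pair the libraries. With the replicate block 5 of the 10 were called lower and 1 higher, and of the other vessel genes 5 lower and 1 higher.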
